A study of Mus musculus with 16 samples.

Results

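The genes described here are 27 genes of cholesterol synthesis, uptake and control by SREBP2, taken from a list of symbols matched to the 55471 gene identifiers of the files. The 27 comprised 8 enzymes of the mevalonate branch, 3 that make and cyclise squalene, 8 that convert lanosterol to cholesterol, 4 genes of the SREBP2 control loop, 2 of uptake and transport and 2 of esterification. Total RNA from frozen pieces of mouse liver was sequenced, with 4 livers in each of 4 groups. These were 102-week-old mice of the antibiotic group PAM II, 102-week-old mice of the antibiotic group PAM I, 102-week-old mice without antibiotics (aged controls) and 12-week-old mice without antibiotics (young). The labels give neither the drugs, the doses, the meaning of the group names, the strain nor the sex, and the title of the study places the exposure in early life. No antibiotic-treated young group is in the set, so age and antibiotics cannot be told apart where a PAM group is compared with young mice. Replicate numbers follow the order of the samples in the set and pair no livers across groups. The labels do not state whether the 4 samples of a group were independently housed, and p-values measure only the spread between these samples.

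Liver cells build cholesterol from acetyl-CoA by way of mevalonate, squalene and lanosterol, and the liver is a main site of this synthesis. The transcription factor SREBP2, encoded by Srebf2, switches on nearly the whole route when sterols in the endoplasmic reticulum run low. SCAP escorts SREBP2 to the Golgi, where proteases free its active part, and the INSIG proteins hold SCAP and SREBP2 back when sterols are plentiful. Surplus cholesterol is stored as esters made by the Soat enzymes, and Mylip limits uptake by marking lipoprotein receptors for degradation.

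SREBP2 acts together with the factors NF-Y and Sp1, so the promoters of members were searched for their motifs in the RefSeq promoter table of build GRCm38.p6, which spans 250 bases before and 50 bases after each start site. Of 27 members, 22 had an entry, with 28 promoters in all. Fdps, Fdft1, Sqle, Stard4 and Soat2 had none. Both strands were read for CCAAT (NF-Y box), GGGCGG (Sp1 box) and TCACNCCAC (sterol regulatory element). At least 1 CCAAT was found in 20 of 22 members (90.9%), against 41.1% of the 27025 genes of the table and 42.5% of the 11607 genes of the table that were measured here. GGGCGG was also found in 20 of 22 members (90.9%), against 38.2% of all genes and 64% of measured genes. TCACNCCAC was found in 1 of 22 members (4.55%), Hmgcs1, against 1.44% of all genes and 1.46% of measured genes. A match is a description of the letters in the window and does not show binding.

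The promoters below are of Hmgcs1, with its sterol regulatory element, of Idi1, the member with the largest fold change between the antibiotic groups, of Mvd, of Msmo1 with its closely spaced boxes, and of Acat2 and Scap, the 2 members without CCAAT. Letters are 5′ to 3′ on the strand of the gene and end at the last base before the start site. Capitals mark the NF-Y box (CCAAT, read as ATTGG on the other strand), the Sp1 box (GGGCGG, read as CCGCCC on the other strand) and, in Hmgcs1, the sterol regulatory element (TCACCCCAC).
Hmgcs1 (chr13:119690101-119690350, plus strand): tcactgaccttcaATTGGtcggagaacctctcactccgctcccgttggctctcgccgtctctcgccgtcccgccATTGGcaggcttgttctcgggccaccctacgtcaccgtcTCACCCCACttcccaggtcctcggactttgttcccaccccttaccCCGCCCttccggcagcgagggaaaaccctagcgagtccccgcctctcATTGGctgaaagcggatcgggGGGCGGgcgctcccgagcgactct
Idi1 (chr13:8885456-8885605, plus strand): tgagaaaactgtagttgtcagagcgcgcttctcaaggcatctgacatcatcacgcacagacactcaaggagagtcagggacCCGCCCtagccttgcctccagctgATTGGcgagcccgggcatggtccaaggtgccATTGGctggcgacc
Mvd (chr8:122443423-122443572, minus strand): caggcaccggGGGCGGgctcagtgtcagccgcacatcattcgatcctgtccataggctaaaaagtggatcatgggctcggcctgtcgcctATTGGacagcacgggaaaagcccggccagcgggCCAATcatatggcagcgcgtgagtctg
Msmo1 (chr8:64733579-64733758, minus strand): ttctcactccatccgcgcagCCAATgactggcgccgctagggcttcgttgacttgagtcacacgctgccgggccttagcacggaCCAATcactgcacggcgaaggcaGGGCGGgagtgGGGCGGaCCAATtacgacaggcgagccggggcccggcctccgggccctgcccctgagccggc
Acat2 (chr17:12960726-12960875, minus strand): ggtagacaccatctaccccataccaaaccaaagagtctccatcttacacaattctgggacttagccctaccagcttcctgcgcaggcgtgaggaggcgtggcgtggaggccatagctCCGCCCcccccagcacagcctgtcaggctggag
Scap (chr9:110333138-110333287, plus strand, first of 2 promoters): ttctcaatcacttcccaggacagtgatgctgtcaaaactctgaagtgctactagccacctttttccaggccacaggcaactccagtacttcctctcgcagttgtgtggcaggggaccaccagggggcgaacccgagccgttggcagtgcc

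The upstream promoter of Hmgcs1 held its sterol regulatory element 137 bases before the start site, with CCAAT boxes at 237, 176 and 45 bases before it. In Msmo1 the CCAAT boxes lay 160, 96 and 55 bases before the start site, next to 2 Sp1 boxes. No motif was marked in the shown stretch of the first Scap promoter. Outside that stretch Scap had Sp1 boxes, at 39 bases from the start site in the first promoter and at -30, 15 and 38 in the second.

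**Figure D1:**
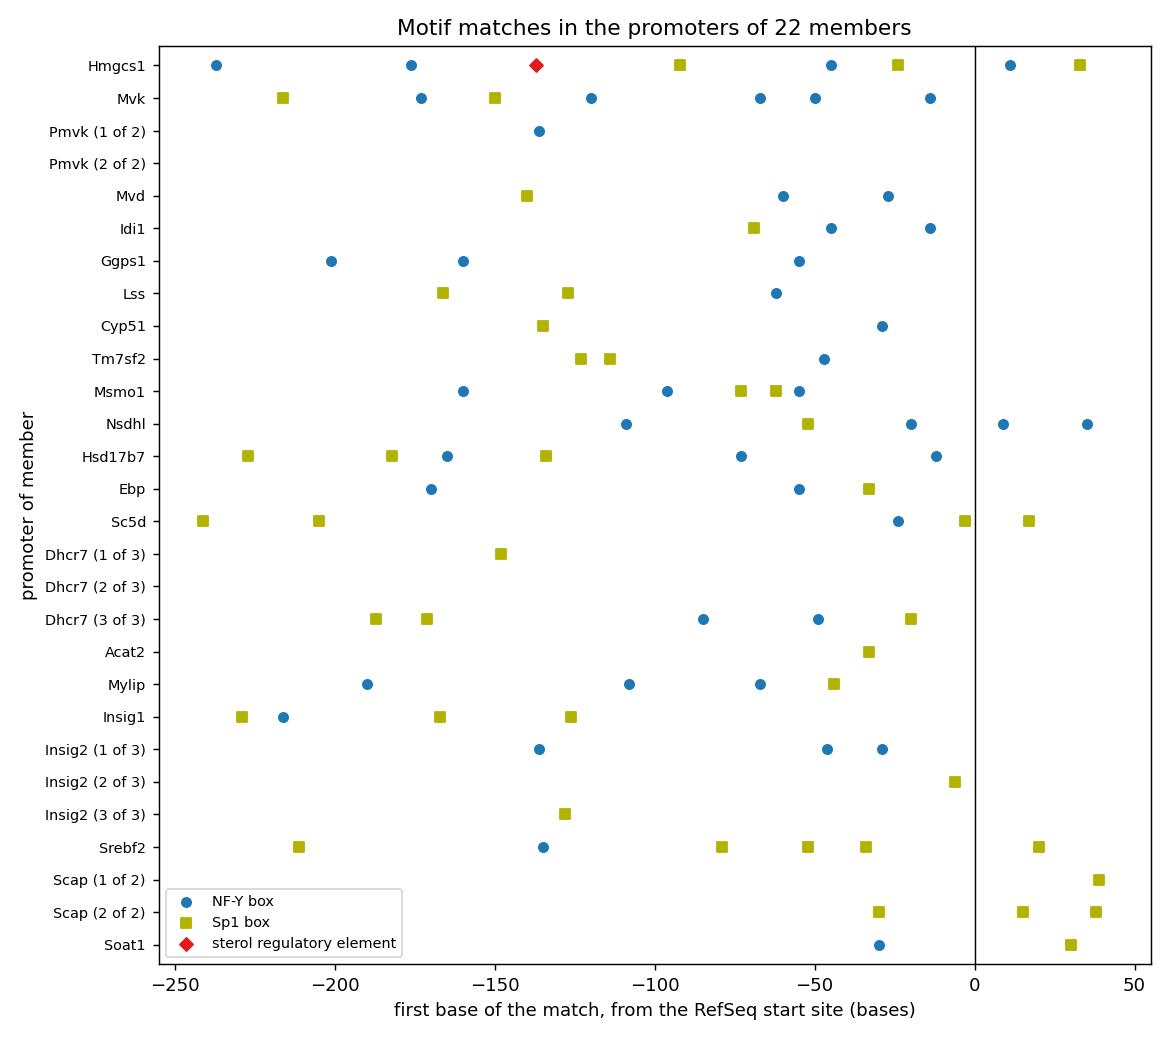
Positions of the 3 motifs in the 28 promoters of 22 members, in bases from the RefSeq start site (x axis), 1 line per promoter (y axis). Circles are NF-Y boxes, squares Sp1 boxes and the diamond the sterol regulatory element of Hmgcs1 at -137; Acat2 and both Scap promoters have no circle.

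The 6 members called in any comparison lie, in build GRCm38, at chr13:119690379-119708260 (Hmgcs1, ENSMUSG00000093930), chr17:12942890-12960747 (Acat2, ENSMUSG00000023832), chr8:122433601-122443422 (Mvd, ENSMUSG00000006517), chr14:63145150-63179578 (Fdft1, ENSMUSG00000021273), chr7:143823145-143848410 (Dhcr7, ENSMUSG00000058454) and chr9:110333288-110384950 (Scap, ENSMUSG00000032485), and their values sum reads over the exons of the whole gene. All 27 members passed the filter on low counts that left 17046 genes. Levels below are CPM, the counts scaled to TMM-normalised library size, and fold changes are log2 with their standard error (SE). Calls are genes with an adjusted p (Benjamini-Hochberg, over all 17046 genes) under 0.05 in edgeR's quasi-likelihood test. The libraries held 41233838 to 52090914 in PAM II, 44532527 to 48706530 in PAM I, 39856490 to 47042924 in aged controls and 36968993 to 42733282 in young livers, counted in fragments on genes. Hmgcs1 had at least 7356 fragments in every library and Soat1, the shallowest member, 101 to 769. Compared per length, as TPM, the highest mean levels over 16 livers were those of Sc5d (424 ± 104 TPM, SD), Insig1 (331 ± 79.6 TPM) and Hmgcs1 (289 ± 115 TPM), and the lowest those of Ggps1 (4.28 ± 0.429 TPM) and Soat1 (1.44 ± 0.822 TPM).

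Some libraries stood apart. Mitochondrial transcripts took 13.9% of the fragments in young replicate 1 and 6.05% to 6.31% in the other young livers. PAM I replicate 3 had the lowest level of all 16 livers for 8 of the 19 synthesis enzymes. Skeletal muscle markers (6 genes) summed to 1.25 to 86.8 CPM in PAM II, 1.47 to 34.4 CPM in PAM I, 0.658 to 10.4 CPM in aged controls and 1.05 to 88.8 CPM in young livers, and 1 to 4 of the 6 were at 0 in 7 libraries. The 8 hepatocyte markers were high in every library, summing to 67095 to 122449 CPM over the 16, most of it Alb. Alb was lowest in PAM I replicate 3, at 37419 CPM, and at 55816 to 92102 CPM in the other livers. Between all aged and young livers, 5 of 6 recruited macrophage markers, 2 of 8 Kupffer cell markers, 2 of 5 B cell markers, 2 of 5 T cell markers and 1 of 5 bile duct markers were called higher, while 1 of 8 hepatocyte markers and 2 of 6 endothelial markers were called lower. Of all genes 6.12% were called higher and 4.99% lower. All 8 hepatocyte markers had a negative log2 fold change (median -0.48, all genes -0.03). Of these, 6 were lower at an unadjusted p under 0.05 (edgeR), where 13.4% of all genes were. None of 6 muscle markers, 6 stellate cell markers or the 1 adipocyte marker of 4 that passed the filter was called. Their part in the results below was not tested beyond the covariates given in the closing section. In whole liver, fewer cells of a type and less RNA per cell cannot be told apart.

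Across the groups, the synthesis enzymes tended to be highest in PAM II livers and lowest in young livers. PAM II had the highest group mean for 22 of 27 members, 17 of them among the 19 synthesis enzymes, and young mice had the lowest for 19 of 27. The shares of all genes with these orders were not counted. Relative to the mean of the aged controls, the mean log2 level of the 19 synthesis enzymes was 0.18, 0.48, 0.31 and 0.42 in the PAM II livers, 0.31, 0.03, -0.73 and -0.01 in the PAM I livers, -0.12, -0.13, 0.13 and 0.13 in the aged controls, and -0.61, 0.08, -0.46 and -0.29 in the young livers. All PAM II livers lay above all aged controls, while PAM I livers lay on both sides of the controls and young replicate 2 lay among the aged controls while the other 3 young livers lay below them.

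**Figure D2:**
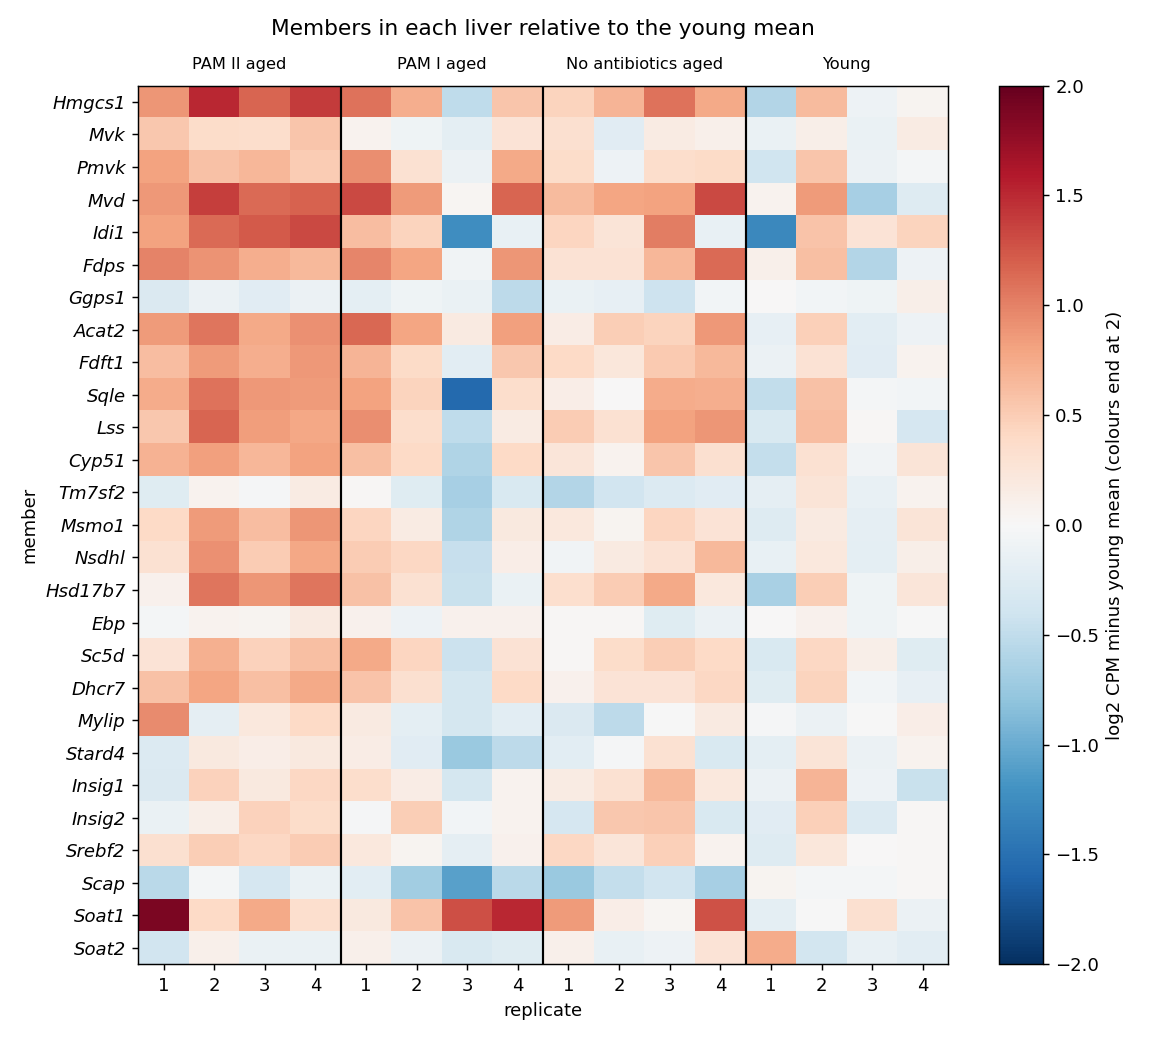
Level of each of the 27 members (rows) in each of 16 livers (columns, 4 per group, split by black lines), as log2 CPM minus the mean of the young livers; red is above and blue below that mean. The PAM II columns are red for most synthesis enzymes, PAM I replicate 3 is blue for many of them, and the Scap row is blue in most aged livers.

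The calls came only from comparisons with young mice. In PAM II against young, 4 of 27 members were called higher (Hmgcs1, Acat2, Fdft1 and Dhcr7) and 0 lower, where 5.19% of all genes were called, 3.17% as higher and 2.01% as lower. In PAM I against young, Acat2 was called higher and Scap lower, where 8.22% of genes were called, 4.83% as higher and 3.38% as lower. In aged controls against young, 0 of 27 were called, where 3.23% of genes were, and 7 members were higher and 2 lower at an unadjusted p under 0.05, where 10.3% and 8.68% of genes were. DESeq2 called 1 member lower in this comparison and limma voom 0, with the share of all genes not counted for either. The mean of the 3 aged groups against young gave 3 higher calls (Mvd, Acat2 and Fdft1) and 1 lower call (Scap), where 11.1% of genes were called, 6.12% as higher and 4.99% as lower. These comparisons share the same 4 young livers. The median log2 fold change of the 27 members was 0.64 in PAM II against young, 0.11 in PAM I against young, 0.28 in aged controls against young and 0.36 in all aged against young, and the median over all genes lay between -0.03 and -0.01 in these comparisons. With 1 liver left out the median in PAM I against young ranged over -0.02 to 0.28, and was negative without PAM I replicate 1. Without young replicate 2 the median in aged controls against young was 0.42, and without young replicate 1 that in all aged against young was 0.24.

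No overlap between the 4 PAM II and the 4 young livers was seen for 15 members. Among them 14 were higher in PAM II, where 8.17% of all genes were higher without overlap, and 1, Ggps1, was lower, where 6.14% of all genes were. In PAM I against young 0 members were higher without overlap (9.16% of genes) and 2, Ggps1 and Scap, were lower (7.71% of genes). In aged controls against young 0 were higher (4.83% of genes) and 2, Tm7sf2 and Scap, were lower (4.44% of genes). Among aged livers, Mvk, Cyp51 and Dhcr7 were higher without overlap in PAM II against both other groups, Pmvk and Sqle against aged controls (5 members in all, 0.81% of genes) and Idi1 and Srebf2 against PAM I (5 members in all, 1.76% of genes).

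Among aged livers no member was called in edgeR's test, and no gene of the 17046 was (0%). DESeq2 and limma voom also called 0 members. In PAM II against PAM I, all 27 members had a positive log2 fold change (median 0.37), where 50.9% of all genes were positive with a median of 0.01, and 12 members were higher at an unadjusted p under 0.05, where 2.27% of genes were. In PAM II against aged controls, 25 of 27 were positive (median 0.33, all genes 0.01), where 51.4% of genes were, and 5 were higher at an unadjusted p under 0.05, where 1.23% of genes were. In PAM I against aged controls, 8 of 27 were positive (median -0.05, all genes 0.02), where 52.4% of genes were, and 0 had an unadjusted p under 0.05, where 9.4% of genes did. Both antibiotic groups together against aged controls gave 21 of 27 positive (median 0.13, all genes 0.01), where 52.6% of genes were, and 0 at an unadjusted p under 0.05, where 5.64% of genes were. Some members vary together from liver to liver, as shown further on for Hmgcs1 with Sqle, Fdft1, Idi1 and Stard4. These counts are thus not independent observations, and PAM II livers or aged controls enter more than 1 of these comparisons. The median in PAM II against PAM I was 0.25 without PAM I replicate 3. With 1 liver left out, the median in PAM I against aged controls ranged over -0.21 (without PAM I replicate 1) to 0.06 (without PAM I replicate 3), and it was also above 0 with limma voom (0.02). That of both antibiotic groups against aged controls ranged over 0.04 (without PAM I replicate 1) to 0.21 (without PAM I replicate 3).

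Hmgcs1 makes HMG-CoA, the precursor of mevalonate. It was at 626, 957, 758 and 894 CPM in PAM II livers, 718, 560.4, 238 and 497 CPM in PAM I livers, 458, 539.6, 715 and 573 CPM in aged controls and 225, 525, 314 and 352 CPM in young livers. Every PAM II liver was above every young liver, and PAM I replicate 3 was among the young values. Its log2 fold change over young was 1.19 ± 0.29 in PAM II (SE, n = 4 each, edgeR adjusted p = 0.029), 0.51 ± 0.29 in PAM I (adjusted p = 0.28) and 0.69 ± 0.29 in aged controls (adjusted p = 0.21). Over all aged livers it was 0.80 ± 0.25 (adjusted p = 0.0503), just outside the threshold. Between PAM II and PAM I the difference was 0.68 ± 0.29, and between PAM II and aged controls 0.50 ± 0.29, neither of them called (adjusted p = 0.88 and 1). The call in PAM II over young was lost without PAM II replicate 2, 3 or 4 or young replicate 1, 3 or 4, at adjusted p between 0.0526 and 0.0898 and fold changes between 1.02 and 1.22. Over all aged livers Hmgcs1 was called by DESeq2, by limma voom, and without PAM I replicate 3 or young replicate 2. In PAM I over young the fold change was 0.26 without PAM I replicate 1, 0.32 without young replicate 1 and 0.75 without young replicate 2.

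Acat2, the cytosolic thiolase that joins acetyl-CoA units at the start of the route, was at 106, 124, 101 and 112 CPM in PAM II livers, 131, 103, 67.1 and 104 CPM in PAM I livers, 66.0, 83.6, 80.7 and 109 CPM in aged controls and 52.9, 82.3, 51.1 and 55.4 CPM in young livers. Young replicate 2 stood above the other young livers and inside the range of the aged controls. Acat2 rose in PAM II over young by 0.88 ± 0.20 (adjusted p = 0.021), in PAM I over young by 0.75 ± 0.20 (adjusted p = 0.035) and in all aged livers over young by 0.70 ± 0.17 (adjusted p = 0.017), while aged controls over young gave 0.49 ± 0.20 (adjusted p = 0.20). Acat2 has a near-identical neighbour, Acat3, so how the authors' counting split their reads is uncertain. Leaving out 1 liver ended the call in all aged livers for young replicate 1, 3 or 4 (adjusted p between 0.0555 and 0.0717), in PAM II for these or PAM II replicate 2 (between 0.0556 and 0.0748), and in PAM I for these or PAM I replicate 1, 2 or 4 (between 0.0762 and 0.0974).

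Mvd, which decarboxylates mevalonate diphosphate, was at 68.6, 97.8, 82.2 and 84.8 CPM in PAM II livers, 94.1, 68.0, 38.7 and 83.8 CPM in PAM I livers, 58.3, 64.9, 65.8 and 93.7 CPM in aged controls and 39.4, 67.9, 23.7 and 31.5 CPM in young livers. Young replicate 2 overlapped the aged values. Mvd rose over all aged livers against young by 0.88 ± 0.25 (adjusted p = 0.037), with 1.04 ± 0.30 in PAM II (adjusted p = 0.055), 0.81 ± 0.30 in PAM I (adjusted p = 0.097) and 0.80 ± 0.30 in aged controls (adjusted p = 0.16). The call was lost without aged control replicate 4, PAM I replicate 1, 2 or 4, PAM II replicate 2 or 3, or young replicate 1, 3 or 4, at adjusted p between 0.0507 and 0.13 and fold changes between 0.69 and 0.88. It was also lost with low counts kept (adjusted p = 0.059), with the clock covariate (0.058), and without PAM I replicate 3 and young replicate 1 together (0.057).

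Idi1, the isomerase that interconverts the activated isoprene units, was at 34.4, 42.8, 46.1 and 48.9 CPM in PAM II livers, 30.1, 26.6, 8.25 and 17.7 CPM in PAM I livers, 26.4, 23.3, 40.0 and 17.7 CPM in aged controls and 7.97, 29.1, 23.8 and 26.7 CPM in young livers. All PAM II livers were above all PAM I livers and all young livers, and aged control replicate 3 lay among the PAM II values. Idi1 had the largest fold change of the 27 in PAM II against PAM I, 1.06 ± 0.39 (adjusted p = 0.88), and was at 0.68 ± 0.39 in PAM II against aged controls (adjusted p = 1) and 0.97 ± 0.39 in PAM II against young (adjusted p = 0.15), none of them called. The other mevalonate enzymes were not called in any comparison. Mvk averaged 34.0 ± 2.53 CPM in PAM II, 25.2 ± 3.57 CPM in PAM I, 26.5 ± 4.04 CPM in aged controls and 24.9 ± 2.80 CPM in young livers (SD, n = 4 each), and PAM II did not overlap any other group. Ggps1, which makes the geranylgeranyl group for protein prenylation and not sterols, differed from the rest of the branch in having its highest mean in young livers, with 8.43 ± 0.497 CPM in PAM II, 8.18 ± 1.07 CPM in PAM I, 8.41 ± 0.865 CPM in aged controls and 9.59 ± 0.612 CPM in young livers. As TPM the mean of Ggps1 was not highest in young livers. It was 4.35 TPM in PAM II, 4.10 TPM in PAM I, 4.44 TPM in aged controls and 4.24 TPM in young livers. The difference of Ggps1 from the other enzymes was not tested.

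**Figure D3:**
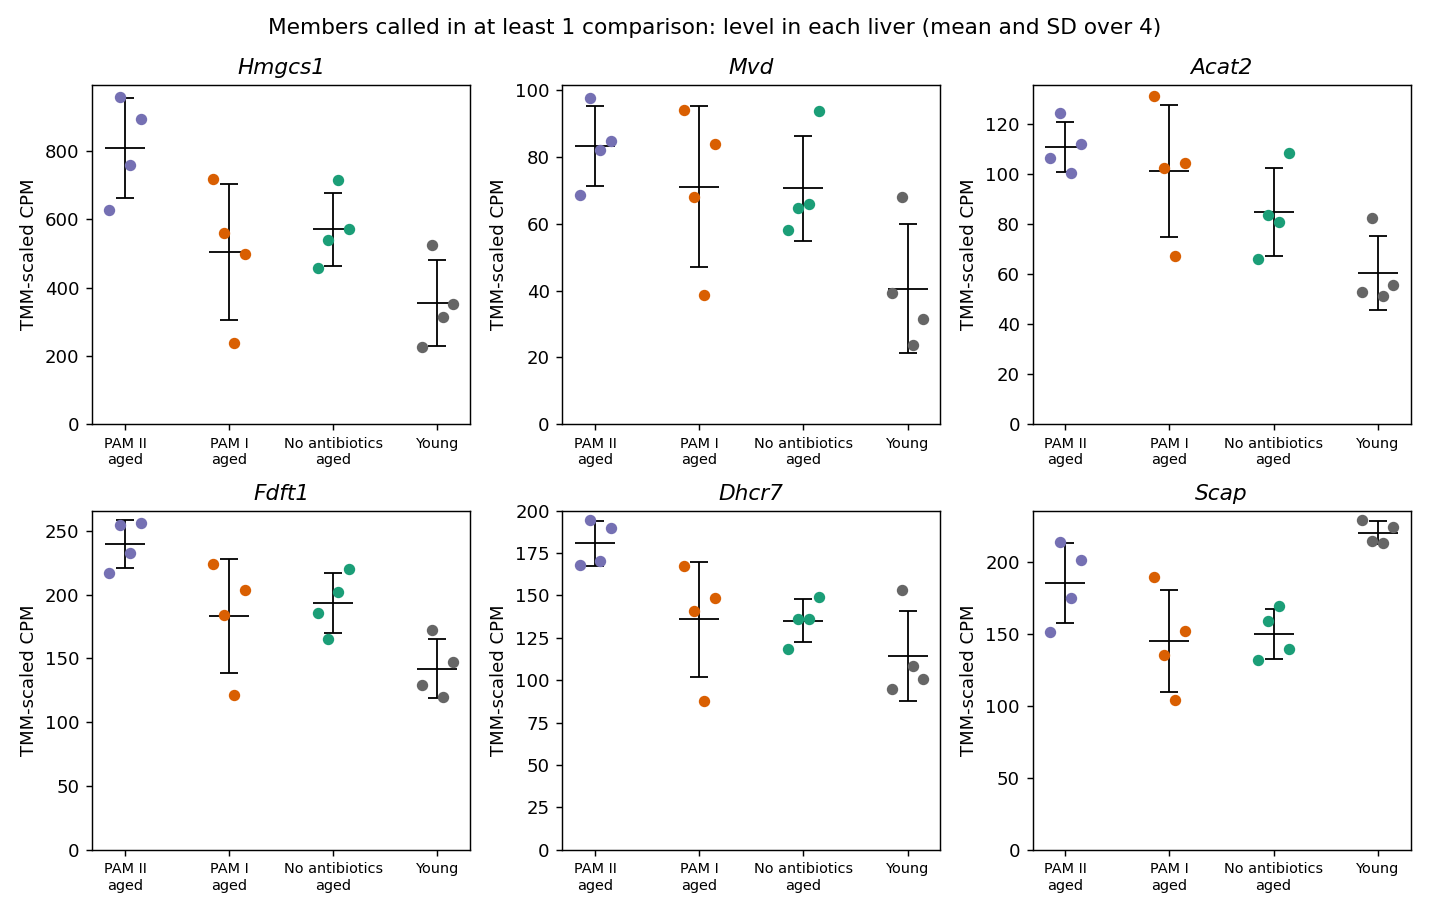
CPM (y axis, from 0) of the 6 members called in at least 1 comparison, in each of the 4 livers of PAM II, PAM I, aged controls without antibiotics and young mice (x axis); points are livers, the cross line is the mean and the bar the SD. Young livers are low except replicate 2 for Hmgcs1, Mvd, Acat2, Fdft1 and Dhcr7, and high and close together (213 to 229 CPM) for Scap.

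Fdft1, squalene synthase, commits the route to sterols. It was at 217, 255, 233 and 256 CPM in PAM II livers, 224, 184, 121 and 204 CPM in PAM I livers, 185, 165, 202 and 220.0 CPM in aged controls and 129, 172, 119 and 147 CPM in young livers. PAM II and young livers did not overlap, and 10 of 12 aged livers were above every young liver. Fdft1 rose by 0.76 ± 0.17 in PAM II over young (adjusted p = 0.018) and by 0.52 ± 0.14 in all aged over young (adjusted p = 0.028), with 0.37 ± 0.17 in PAM I (adjusted p = 0.17) and 0.45 ± 0.17 in aged controls (adjusted p = 0.16). Without young replicate 1, 3 or 4 both calls were lost (adjusted p between 0.0503 and 0.0995), and that in PAM II also without PAM II replicate 2 (0.0532). The fold change in PAM I was 0.24 without PAM I replicate 1.

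Sqle, squalene epoxidase, was at 106, 135, 116 and 114 CPM in PAM II livers, 109.9, 86.0, 21.5 and 80.2 CPM in PAM I livers, 69.1, 63.6, 106 and 104 CPM in aged controls and 45.1, 95.2, 61.3 and 60.6 CPM in young livers. The value in PAM I replicate 3 was the lowest of 16. Sqle was not called in any comparison (PAM II over young 0.84 ± 0.35, adjusted p = 0.17). Lss, which closes the sterol rings, was not called either, with means of 129.9 ± 23.2 CPM in PAM II, 90.5 ± 36.1 CPM in PAM I, 113 ± 20.6 CPM in aged controls and 75.0 ± 25.04 CPM in young livers.

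Of the 8 enzymes after lanosterol only Dhcr7, which makes cholesterol from its immediate precursor 7-dehydrocholesterol, was called, in PAM II against young. It was at 168, 195, 170.2 and 189.8 CPM in PAM II livers, 167, 141, 87.9 and 148 CPM in PAM I livers, 119, 136, 136 and 149 CPM in aged controls and 95.1, 153, 109 and 101 CPM in young livers. The PAM II livers lay above all others, by a narrow margin over PAM I replicate 1. Dhcr7 rose by 0.66 ± 0.18 in PAM II over young (adjusted p = 0.044), and was at 0.42 ± 0.18 in PAM II over aged controls (adjusted p = 1). Its call held only without young replicate 2 when 1 liver was left out, and was lost without any other of the 8 (adjusted p between 0.0749 and 0.13, fold changes between 0.57 and 0.69).

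Cyp51, the lanosterol demethylase, was not called and averaged 244 ± 13.5 CPM in PAM II, 175 ± 54.4 CPM in PAM I, 179.8 ± 25.8 CPM in aged controls and 148 ± 34.7 CPM in young livers, and its PAM II livers also lay above all others. Msmo1, the methyl sterol oxidase, averaged 224 ± 34.3 CPM in PAM II, 148 ± 40.3 CPM in PAM I, 164 ± 17.5 CPM in aged controls and 139.6 ± 24.98 CPM in young livers. Its adjusted p in PAM II against young was 0.0501. Nsdhl, Hsd17b7 and Sc5d, which carry out the demethylation and desaturation steps, had their highest means in PAM II and their lowest in young livers, with no call. Ebp, the sterol isomerase, was nearly level, with means of 235 ± 13.7 CPM in PAM II, 230.0 ± 15.03 CPM in PAM I, 213 ± 18.9 CPM in aged controls and 224 ± 11.2 CPM in young livers. Tm7sf2, a sterol reductase, averaged 143 ± 16.7 CPM in PAM II, 118 ± 22.2 CPM in PAM I, 111 ± 11.6 CPM in aged controls and 144 ± 21.1 CPM in young livers, and all 4 aged controls were below all young livers. Tm7sf2 overlaps Vps51 on the same strand, so its reads may be shared.

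**Figure D4:**
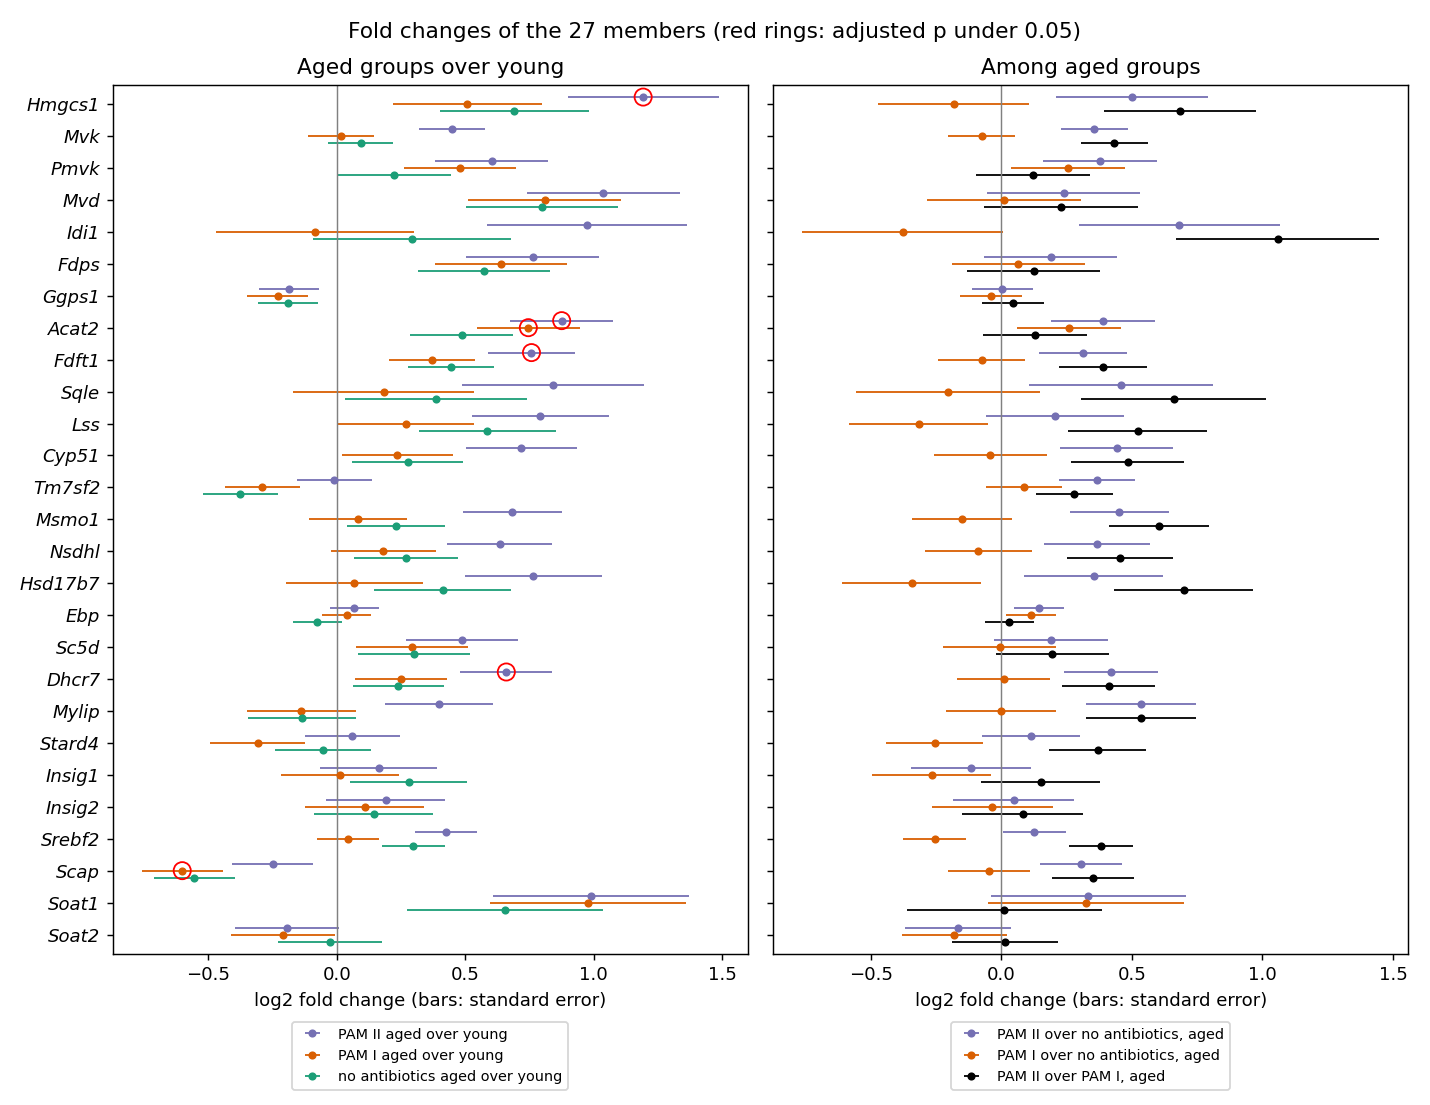
Log2 fold change (x axis) with its standard error for the 27 members (y axis), at left for PAM II, PAM I and aged controls over young and at right for PAM II over aged controls, PAM I over aged controls and PAM II over PAM I; red rings mark adjusted p under 0.05. Rings appear only in the comparisons with young, on Hmgcs1, Acat2, Fdft1 and Dhcr7 for PAM II and on Acat2 and Scap for PAM I, and all black points lie right of 0.

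In the control loop, the transcript of Scap, the sterol-sensing escort of SREBP2, was lower in aged than in young livers. It was at 152, 214, 175 and 201 CPM in PAM II livers, 189, 136, 104 and 152 CPM in PAM I livers, 132, 159, 169 and 139 CPM in aged controls and 229, 214, 213 and 224 CPM in young livers. In 11 of 12 aged livers Scap was below every young liver, the exception being PAM II replicate 2. Scap fell by 0.60 ± 0.16 in PAM I against young (log2 -0.60, adjusted p = 0.031) and by 0.47 ± 0.12 in all aged against young (log2 -0.47, adjusted p = 0.027), and its log2 fold change was -0.56 ± 0.16 in aged controls (adjusted p = 0.066) and -0.25 ± 0.16 in PAM II (adjusted p = 0.37). The call in all aged livers was lost without any 1 of the 4 young livers, at an adjusted p between 0.0508 and 0.0827, and with the mean of the Kupffer cell markers as a covariate (-0.29, adjusted p = 0.097). That in PAM I was lost without PAM I replicate 2, 3 or 4 or any 1 young liver, at adjusted p between 0.0503 and 0.0747. Without PAM II replicate 1 the fold change in PAM II was -0.16.

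Srebf2 itself was at 98.3, 109.8, 104 and 112 CPM in PAM II livers, 90.7, 81.8, 69.5 and 83.6 CPM in PAM I livers, 104, 93.0, 109 and 82.0 CPM in aged controls and 65.4, 92.3, 78.9 and 79.5 CPM in young livers. PAM II livers were above all PAM I and all young livers and overlapped the aged controls. The log2 fold change was 0.42 ± 0.12 in PAM II over young (adjusted p = 0.054) and 0.38 ± 0.12 in PAM II over PAM I (adjusted p = 0.88). Reads of Srebf2 may include those of Gm49502, which overlaps it on the same strand.

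Insig1, a target of SREBP2 that brakes it, did not follow the order of the enzymes. It was at 314, 528, 441 and 513 CPM in PAM II livers, 489, 423, 301 and 404 CPM in PAM I livers, 428, 475, 599 and 445 CPM in aged controls and 352, 614, 358 and 281 CPM in young livers. The groups overlapped fully, and the aged controls had the highest mean. The fold change in PAM II was 0.16 ± 0.23 over young (adjusted p = 0.72) and -0.12 ± 0.23 over aged controls (adjusted p = 1). Its liver-enriched relative Insig2 was at 201, 238, 301 and 282 CPM in PAM II livers, 215, 309, 211 and 229 CPM in PAM I livers, 173, 318, 321 and 176 CPM in aged controls and 187, 303, 182 and 222 CPM in young livers. In aged controls Insig2 split into a low and a high pair, and no comparison was called (all aged over young 0.15 ± 0.19, adjusted p = 0.66). With 1 liver left out, the fold change of Insig1 in PAM II over young ranged over 0.02 (without young replicate 4) to 0.45 (without young replicate 2), and that of Insig2 in all aged over young over 0.06 (without young replicate 1 or 3) to 0.33 (without young replicate 2).

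Mylip, the ubiquitin ligase that degrades lipoprotein receptors and is switched on by liver X receptors, was at 14.2, 6.48, 8.504 and 9.73 CPM in PAM II livers, 8.33, 6.42, 5.79 and 6.34 CPM in PAM I livers, 6.05, 5.12, 7.34 and 8.40 CPM in aged controls and 7.29, 6.81, 7.33 and 8.13 CPM in young livers. PAM II replicates 1, 3 and 4 lay above every liver of the other groups and PAM II replicate 2 inside their ranges. The fold change in PAM II over aged controls was 0.53 ± 0.21 (adjusted p = 1), and 0.29 without PAM II replicate 1. Stard4, which carries cholesterol between membranes, was at 77.1, 106, 102 and 107 CPM in PAM II livers, 103, 79.9, 55.8 and 64.7 CPM in PAM I livers, 80.3, 91.5, 115 and 75.5 CPM in aged controls and 81.0, 111, 86.1 and 97.5 CPM in young livers. All groups overlapped and no comparison was called (all aged over young -0.10 ± 0.15, adjusted p = 0.71).

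The esterifying enzymes differed in which livers held them. Soat2, the form of hepatocytes and gut in mice, was at 53.0, 74.1, 63.0 and 62.6 CPM in PAM II livers, 73.7, 63.1, 55.4 and 58.0 CPM in PAM I livers, 74.0, 62.3, 64.2 and 82.8 CPM in aged controls and 115, 53.1, 61.9 and 59.3 CPM in young livers. Apart from young replicate 1 the groups overlapped (all aged over young -0.14 ± 0.16, adjusted p = 0.61, and 0.16 without that liver). Soat1, the widely expressed form that is prominent in macrophages, was at 13.2, 4.66, 6.003 and 4.46 CPM in PAM II livers, 4.07, 5.26, 8.75 and 10.1 CPM in PAM I livers, 6.39, 3.86, 3.64 and 8.64 CPM in aged controls and 3.08, 3.52, 4.44 and 3.25 CPM in young livers. PAM II livers were above all young livers by a narrow margin, and the 4 highest values came from PAM II replicate 1, PAM I replicates 3 and 4 and aged control replicate 4. The fold change in all aged over young was 0.87 ± 0.33 (adjusted p = 0.092), not called.

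Soat1 went with the macrophage markers from liver to liver. The 8 Kupffer cell markers, none at 0 in any library, summed to 306 to 1319 CPM in PAM II, 244 to 1064 CPM in PAM I, 169 to 588 CPM in aged controls and 200.4 to 269 CPM in young livers. The 6 recruited macrophage markers summed to 76.9 to 429 CPM in PAM II, 76.8 to 357 CPM in PAM I, 72.0 to 212 CPM in aged controls and 33.4 to 53.6 CPM in young livers, again with none at 0. Over the 12 aged livers, Soat1 correlated with the mean log2 level of the Kupffer cell markers (Pearson r = 0.896, permutation p = 8e-05, adjusted 0.00024, Spearman rho = 0.944, permutation p = 2e-05, adjusted 0.00012) and with that of the recruited macrophage markers (r = 0.882, permutation p = 0.00015, adjusted 0.00036, rho = 0.895, permutation p = 0.00012, adjusted 0.00048). Without the 2 livers farthest from the median of the markers r was 0.824 and 0.911, and after centring by group it was 0.901 and 0.930. Mylip did not correlate with the Kupffer cell markers (r = 0.249, permutation p = 0.441, adjusted 0.441, rho = 0.042, permutation p = 0.904, adjusted 0.904). These 3 relations were chosen after their values were seen. With the Kupffer cell markers as a covariate, the fold change of Soat1 in all aged over young was 0.24 (adjusted p = 0.44).

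Hmgcs1, Sqle, Fdft1 and Idi1 varied together across aged livers, and the other synthesis enzymes were not set against Hmgcs1. Over the 12 aged livers, log2 CPM of Hmgcs1 was set against 9 other members, and p-values were adjusted over 12 relations, the 3 above included. With Sqle the correlation was r = 0.944 (permutation p = 1e-05, the smallest that 100000 resamples can give, adjusted 0.00012, rho = 0.965, permutation p = 2e-05, adjusted 0.00012). With Fdft1 it was r = 0.930 (permutation p = 8e-05, adjusted 0.00024, rho = 0.874, permutation p = 0.00051, adjusted 0.00151), and with Idi1 r = 0.922 (permutation p = 5e-05, adjusted 0.00024, rho = 0.867, permutation p = 0.00063, adjusted 0.00151). Without PAM I replicate 3 and PAM II replicate 2, the livers farthest from the median of Hmgcs1, r was 0.825, 0.768 and 0.814 for Sqle, Fdft1 and Idi1, and after centring by group 0.929, 0.888 and 0.867. Livers high in 1 of these enzymes thus tended to be high in the others, also after centring by group. The centred values kept PAM I replicate 3 and were not repeated without it. Permutations, here and for Soat1 above, ran over all 12 aged livers without regard to group. Their p-values therefore also take in differences between groups, and the centred r values have no p-value. Single livers departed from this, as aged control replicate 4 had the highest Fdft1 (220 CPM) and the lowest Idi1 (17.7 CPM) of its group.

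Outside the enzymes the relation to Hmgcs1 was uneven. Stard4 followed it (r = 0.867, permutation p = 0.00022, adjusted 0.00044, rho = 0.762, permutation p = 0.00564, adjusted 0.0113), with r = 0.779 without those 2 livers and 0.846 after centring. Srebf2 had r = 0.795 (permutation p = 0.00194, adjusted 0.00333, rho = 0.657, permutation p = 0.024, adjusted 0.0321), and r = 0.542 without them. Insig1 had r = 0.714 (permutation p = 0.00952, adjusted 0.0143, rho = 0.699, permutation p = 0.0142, adjusted 0.0213), which rested on those 2 livers since r was 0.414 without them, but was 0.877 after centring by group. For Mylip the rank correlation passed and the linear one did not (r = 0.430, permutation p = 0.161, adjusted 0.193, rho = 0.706, permutation p = 0.0126, adjusted 0.0213), and after centring r was 0.117. Insig2 (r = 0.349, permutation p = 0.277, adjusted 0.303, rho = 0.329, permutation p = 0.299, adjusted 0.326) and Soat1 (r = -0.463, permutation p = 0.128, adjusted 0.17, rho = -0.441, permutation p = 0.155, adjusted 0.185) did not pass in either form.

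**Figure D5:**
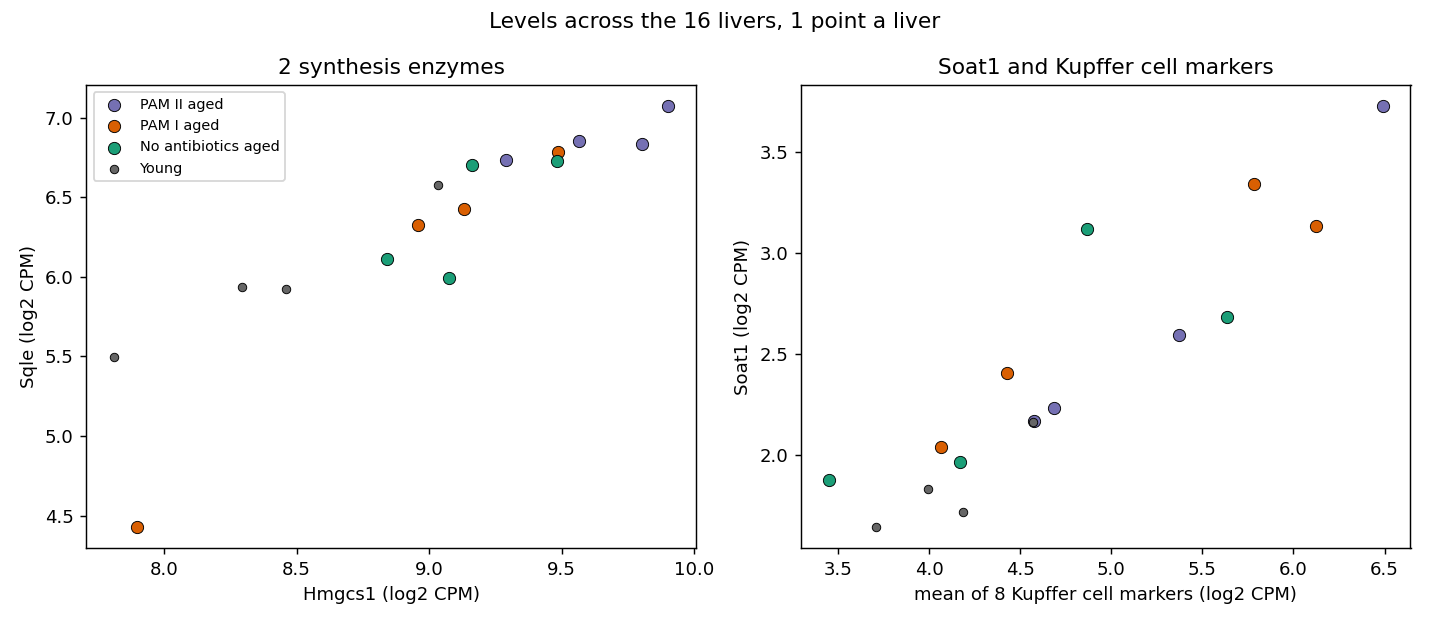
Each point is 1 of 16 livers, coloured by group (small grey points are young). At left, Sqle against Hmgcs1 (both log2 CPM), with PAM I replicate 3 at the lower left and the PAM II livers at the upper right; at right, Soat1 against the mean of 8 Kupffer cell markers (both log2 CPM), with PAM II replicate 1 highest on both axes.

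Genes around the route were read from lists chosen with earlier results known, in all aged against young livers. None of 16 genes of SREBP processing and sterol-regulated protein turnover and none of 11 transcription partners and liver X receptors was called, with 1 higher and 1 lower in the first list and 0 higher and 2 lower in the second at an unadjusted p under 0.05, where 14.9% of all genes were higher and 13.4% lower. Of 21 further sterol and isoprenoid enzymes, 1 was called higher (6.12% of all genes), Erg28, which tethers the demethylation enzymes to one another in yeast. It averaged 78.9 ± 9.35 CPM in the 12 aged livers and 59.6 ± 8.48 CPM in the 4 young livers (log2 fold change 0.40 ± 0.10, adjusted p = 0.017), and its fold change in PAM II over young was 0.56 ± 0.12 (adjusted p = 0.012). Without young replicate 1 the fold change in all aged livers was 0.30 (adjusted p = 0.075).

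Of 19 genes of sterol uptake, transport and efflux, 18 were measured, 2 were called higher and 3 lower, where 6.12% and 4.99% of all genes were. Vldlr, a receptor for triglyceride-rich lipoproteins that is scarce in normal liver, was at 7.80, 8.08, 9.57 and 10.1 CPM in PAM II livers, 16.1, 9.26, 5.41 and 5.57 CPM in PAM I livers, 7.02, 9.74, 7.98 and 6.59 CPM in aged controls and 1.496, 2.496, 2.45 and 1.26 CPM in young livers. No aged liver overlapped a young one. It rose by 2.15 ± 0.29 in all aged over young (adjusted p = 0.000384) and was called in each aged group against young, by 2.20 ± 0.33 in PAM II, 2.23 ± 0.33 in PAM I and 2.02 ± 0.32 in aged controls (adjusted p = 0.0015, 0.0012 and 0.0033). Npc2, which hands cholesterol out of lysosomes, rose by 0.54 ± 0.14 in all aged over young (adjusted p = 0.025) and by 0.69 ± 0.17 in PAM I over young (adjusted p = 0.024). The lower calls were Scarb1, the receptor for high-density lipoprotein (-0.42 ± 0.11, adjusted p = 0.027), and both subunits of the sterol exporter into bile, Abcg5 (-0.63 ± 0.17, adjusted p = 0.026) and Abcg8 (-0.55 ± 0.14, adjusted p = 0.018). Young replicate 1 held the highest Abcg5 and Abcg8 levels of all livers, 121 and 113 CPM, and without that liver their fold changes were -0.36 (adjusted p = 0.14) and -0.45 (adjusted p = 0.080). Both calls were also lost without young replicate 3 (adjusted p = 0.056 and 0.063), and those of Npc2 and Scarb1 in all aged livers without young replicate 1, 3 or 4 (adjusted p between 0.0505 and 0.0915). Npc2 in PAM I was not called without PAM I replicate 4 or young replicate 1 or 4 (adjusted p between 0.0539 and 0.0881). With the Kupffer cell covariate Npc2 (adjusted p = 0.078), Abcg5 (0.12) and Abcg8 (0.077) were not called in all aged livers, nor were they without PAM I replicate 3 and young replicate 1 together (0.096, 0.13 and 0.097). Abcg5 was not called by limma voom (0.064) and Scarb1 was not with low counts kept (0.055). The call of Vldlr held in every comparison with young without any 1 liver.

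Cholesterol synthesis follows the time of day, and the labels give no time of collection. Dbp, a clock output gene, ranged over 16 livers between 1.94 CPM in an aged control and 45.8 CPM in young replicate 1. Of 12 clock genes, 1 was called in all aged against young, where 11.1% of all genes were. This was Cry1, with 5.57 to 11.7 CPM in PAM II, 5.98 to 10.3 CPM in PAM I, 7.66 to 21.3 CPM in aged controls and 8.79 to 24.2 CPM in young livers. It fell by 1.18 ± 0.33 in PAM I against young (log2, adjusted p = 0.040) and by 0.85 ± 0.25 in all aged against young (adjusted p = 0.042), calls that held in 1 of 8 and 7 of 16 fits without 1 liver. With the difference of Arntl and Dbp as a covariate, Acat2 was no longer called in PAM I against young (0.70, adjusted p = 0.065). Among aged livers no clock gene was called. At an unadjusted p under 0.05 (edgeR), 3 of 12 were lower in PAM II than in aged controls, with 0 higher. The share of all genes lower in that comparison was not counted. In PAM I 3 were lower and 0 higher, where 9.4% of all genes passed in either direction. In both antibiotic groups together 4 were lower and 0 higher, where 5.64% of all genes passed in either direction. In PAM II against PAM I 0 were lower or higher. Npas2 was at 7.598 to 11.4 CPM in PAM II and 12.4 to 25.9 CPM in aged controls. Dbp was at 3.31 to 30.02 CPM in PAM II and 1.94 to 17.1 CPM in aged controls. Whether collection time differed between the aged groups was not tested.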

How the data were processed

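Total RNA from 16 mouse livers was sequenced as paired-end reads. Young samples were grouped by title, age and group fields, since their free-text description calls them aged. Per the submitters' processing notes, the authors used Trimmomatic 0.38, HISAT2 2.1.0 with build mm10 and featureCounts 1.5.0-p2. The deposited values are raw fragment counts per gene with no normalization; per the file headers, strand setting 1 was used. Members, lists and tests were chosen with earlier results of these data known. Symbols came from the GRCm38 annotation, and all 27 members matched 1 identifier each.

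The counts were tested with edgeR 4.0.16 in R 4.3.3, using filterByExpr (17046 of 55471 genes), TMM scaling, 1 mean per group over all 16 libraries, robust quasi-likelihood F tests, two-sided, Benjamini-Hochberg adjustment. The biological coefficient of variation was 27.3%. The closest pair of libraries differed by a root mean square of 0.221 in log2 CPM. TPM were computed from counts and gene lengths in the files. Values of every liver are given for members called in any comparison and for Idi1, Sqle and the members outside the synthesis enzymes, the others by means or counts. Genes of other lists are named where called. Other settings tried were upper-quartile and RLE scaling, keeping low counts, limma 3.58.1 voom with quality weights, DESeq2 1.42.0, only the groups compared, a clock covariate and leaving out each library; muscle and Kupffer marker covariates and leaving out PAM I replicate 3 with young replicate 1 were added after seeing the data. The tests were checked on simulated counts with known 2-fold and 4-fold changes in the PAM II columns. Of the 2-fold changes 77% were recovered in PAM II against young and 70% in PAM II against aged controls. For 4-fold changes these shares were 98% and 97%. False calls were 10 of 185 and 8 of 175. Changes below 2-fold, the size of most member differences, were not simulated.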

Additional observations from a re-analysis of the deposited data

Results flagged for a closer look

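Of 108 member and group pairs, 5 held 1 liver far from the other 3 of its group by Dixon's test at the 95% level, where chance gives about 1 in 20. Pmvk was at 65.2 CPM in aged control replicate 2, the others at 89.4 to 90.9 CPM. Ebp was at 208 CPM in PAM I replicate 2, the others at 237 to 238 CPM. Acat2 was at 82.3 CPM in young replicate 2, the others at 51.1 to 55.4 CPM. Stard4 was at 77.1 CPM in PAM II replicate 1, the liver with the highest Kupffer cell markers, the others at 102 to 107 CPM. Soat2 was at 115 CPM in young replicate 1, the liver with the highest mitochondrial share, the others at 53.1 to 61.9 CPM.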

How the results depend on the processing

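No paired analysis was possible because the labels give no replicate numbers, and the numbers 1 to 4 used here follow only the order of the samples in the set. Among aged livers, 0 members were called under every alternative run. Against young mice the counts were fragile. The share of all genes called was counted in the main fit only, so the counts below have no background beside them. A setting that gave more member calls may have given more calls over all genes, which was not tested. Higher calls in PAM II (4) became 9 with upper-quartile scaling and 12 with limma voom, DESeq2 or the Kupffer cell covariate, and ranged over 0 to 9 when 1 liver was left out, with 9 without young replicate 2, 2 without PAM II replicate 3 or 4, and 0 without PAM II replicate 2 or young replicate 1, 3 or 4. In all aged livers higher calls (3) became 5 with upper-quartile scaling or limma voom, 6 with DESeq2 and 8 with the Kupffer cell covariate, and ranged over 0 to 8, with 8 without young replicate 2, 7 without PAM I replicate 3 and 0 without young replicate 1, 3 or 4; the lower call became 0 with the Kupffer cell covariate, without PAM I replicate 3 and young replicate 1 together, and without any 1 young liver (0 to 1). In PAM I higher calls (1) became 0 with the clock covariate or only the groups compared and 3 with limma voom, and ranged over 0 to 2, with 2 without PAM I replicate 3 or young replicate 2; the lower call became 0 with the Kupffer cell covariate and without PAM I replicate 3 and young replicate 1 together, and remained (1) only without PAM I replicate 1 when 1 liver was left out (0 to 1), and the median became 0.36 with the Kupffer cell covariate. In aged controls 1 lower call appeared with DESeq2 or the Kupffer cell covariate, and 0 to 1 higher calls when 1 liver was left out. Without PAM I replicate 3 and young replicate 1 together, 4 members were called higher in PAM II and 2 in all aged livers.

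Signs turned for members near 0. In all aged over young, Soat2 was 0.11 with limma voom, ranged over -0.26 to 0.16 when 1 liver was left out, with 0.16 without young replicate 1, and was 0.18 without PAM I replicate 3 and young replicate 1. Stard4 was 0.12 with the Kupffer cell covariate. Mylip was -0.011 with the clock covariate, -0.0076 with the Kupffer cell covariate, -0.10 with limma voom, and ranged over -0.042 to 0.087 when 1 liver was left out, being negative without aged control replicate 4, PAM I replicate 1 or PAM II replicate 1. Insig1 in PAM II over aged controls was 0.076 with the Kupffer cell covariate and ranged over -0.21 to 0.020 when 1 liver was left out, the one positive value being that without PAM II replicate 1. The cause was not tested. Acat2 and Fdft1 in all aged over young were called under all 10 alternatives and in 13 of 16 fits without 1 liver. For this comparison the setting with only the groups compared keeps all 16 libraries, so it repeats the main fit and adds no check. With the shorter motif CACNCCAC, 3 of 22 members matched (13.6%), against 7.12% of all genes of the promoter table and 7.75% of measured genes. In the upstream bases alone CCAAT was in 90.9% of members, against 37.5% of all genes and 40% of measured genes. GGGCGG was there in 86.4% of members, against 35.4% of all genes and 59.6% of measured genes. Counting depth limits Soat1 and Mylip most.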
